A study of Mus musculus with 4 samples.

Results

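The epidermal growth factor receptor (EGFR) family was described in 4 mouse lung cancer lines as 9 genes: the receptors Egfr, Erbb2 and Erbb3 and the ligands Areg, Ereg, Hbegf, Tgfa, Epgn and Btc. They were taken by gene symbol from a table of 34147 distinct symbols, where each of the 9 had a single row. The metastatic group was 238N1 and 482N1, both taken from lymph nodes, and the non-metastatic group was 368T1 and 394T4, both taken from the lung. All 4 had the strain 129S1/SvImJ and carried p53flox/flox alleles, in which Cre recombinase from a vector deletes p53 (Trp53). Each line was sequenced once, so a group is 2 lines and its spread is that between lines. The labels describe cultured cancer cells in the growth notes and tumours in the treatment notes.

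These receptors are tyrosine kinases of the cell surface that act in pairs. A ligand is made as a membrane-bound precursor, is cut off by a protease of the ADAM family and then binds Egfr or, for some ligands, Erbb4. Erbb2 binds no known ligand and acts as a partner of the others, and Erbb3 has little kinase activity of its own and binds neuregulins. Bound receptors signal through adaptor proteins to the RAS and phosphoinositide 3-kinase pathways. In lung, Egfr is active in epithelial cells during growth and repair, and it is altered in a group of lung adenocarcinomas.

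The values were FPKM (fragments corrected for transcript length and library depth), which allow levels of different genes to be set side by side. Over all rows they summed to between 924354 in 238N1 and 2279794 in 368T1, and over protein-coding rows to between 413128 in 482N1 and 492076 in 368T1. The largest row held 18.7% of the sum over all rows in 238N1 and 45.4% in 482N1, against 62.4% in 368T1 and 32.5% in 394T4. Values scaled to the library sum, given below, therefore depend strongly on the largest row of each library. Read totals are unknown, and by the step of the lowest values 238N1 was the deepest library, with the others at 0.55 to 0.61 of its depth. An exact 0 can be a failed estimate in this table, since 313 of the 5611 rows that reached 20 FPKM in some line were listed at 0 in another, but no member of the family was at 0 in any line. Trp53 was listed at 0 in 482N1 and 368T1 and measured 1.57 FPKM in 238N1 and 2.74 FPKM in 394T4, values for the whole gene that do not show the deleted part. All 6 epithelial markers reached 1 FPKM in every line, with sums of 1766 to 2567 FPKM in the metastatic and 3229 to 3566 FPKM in the non-metastatic lines. None of the 5 endothelial markers and none of the 8 leukocyte markers found in the table did so, and Ptprc, Cd3e and Pecam1 were listed at 0 throughout. The 8 stromal markers summed to 0.678 and 39.8 FPKM in 238N1 and 482N1, against 2.47 and 4.30 FPKM in 368T1 and 394T4, with Col1a2, Dcn and Lum at 0 in every line.

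Of the 9 genes, Areg differed most between the groups among those tested, with a non-metastatic mean 1.96 times the metastatic one, although it did not pass the test. It lies on chromosome 5 with Epgn, Ereg and Btc, and Epgn, which is barely transcribed here, was also lower in both metastatic lines than in both non-metastatic lines. The stretches just upstream of the Areg, Epgn and Btc starts are shown because Areg and Epgn stood lower in both metastatic lines and Btc, at the other end of the same cluster, did not. They are RefSeq promoter sequences (GRCm38.p6 table), placed by an exact match, the only such match on that chromosome of NCBIM37 (the same assembly as mm9), at chr5:91568375-91568624 (plus strand) for Areg, chr5:91456293-91456489 (plus strand) for Epgn and chr5:91832021-91832270 (minus strand) for Btc. They run 5′ to 3′ on the gene's strand, and capitals mark matches to the letters of a cyclic AMP response element (CRE) or a TATA box.
Areg: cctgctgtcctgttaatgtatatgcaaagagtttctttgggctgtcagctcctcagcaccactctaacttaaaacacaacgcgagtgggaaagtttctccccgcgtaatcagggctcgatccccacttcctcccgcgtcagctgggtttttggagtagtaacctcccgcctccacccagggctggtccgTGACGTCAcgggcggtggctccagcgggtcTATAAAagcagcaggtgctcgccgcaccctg
Epgn: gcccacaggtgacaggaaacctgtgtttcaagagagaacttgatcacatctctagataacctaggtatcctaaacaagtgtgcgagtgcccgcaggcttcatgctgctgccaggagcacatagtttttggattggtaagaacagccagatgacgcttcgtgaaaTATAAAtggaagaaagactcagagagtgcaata
Btc: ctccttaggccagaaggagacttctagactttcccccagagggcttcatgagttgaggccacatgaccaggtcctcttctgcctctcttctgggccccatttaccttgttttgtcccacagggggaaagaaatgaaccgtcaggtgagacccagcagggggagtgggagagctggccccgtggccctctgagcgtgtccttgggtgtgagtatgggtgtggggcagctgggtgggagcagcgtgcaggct

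The Areg stretch held TGACGTCA, the letters of a CRE, with its first base 61 bases before the RefSeq start, and TATAAA 31 bases before it. The Epgn stretch held TATAAA 86 bases before its RefSeq start, and is printed only up to the GENCODE start, so it has 197 bases. The Btc stretch held neither. The stretches were picked by the levels in these lines, and whether the letters bear on those levels was not tested. Both strands of 250 bases were searched for the CRE (TGACGTCA), the TATA box (TATAAA), AP-1 (TGANTCA) and TEAD (GGAATG) letters, and no 2 of the motifs overlapped in a printed stretch. Among 32851 promoters of the same length, 1.55% held the CRE, 12.4% the TATA box, 6.75% the AP-1 and 12.6% the TEAD letters. The table held 6 of the 9 genes and had no entry for Erbb3, Ereg or Hbegf. Of the other 3 genes it held, Erbb2 had 1 match, to the TEAD letters, and Egfr and Tgfa had none.

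The levels of the 9 genes had an order that the lines shared in part. Hbegf, with a mean of 53.7 FPKM over the 4 lines, and Areg, with 47.3 FPKM, were the most abundant and exchanged places between lines, with Hbegf above Areg in 2 of 4 lines. Areg stood above Erbb2 (22.2 FPKM) in 4 of 4 lines, and Erbb2 above Tgfa (18.1 FPKM) in 3 of 4. Tgfa stood above Egfr (8.996 FPKM) in 4 of 4 lines, while Egfr and Btc (8.51 FPKM) could not be ordered, with Egfr higher in 2 of 4. Ereg (7.10 FPKM) lay below Btc in 3 of 4 lines and above Erbb3 (5.07 FPKM) in 3 of 4, and Epgn was last by far, at 0.340 FPKM. Set against all genes above 0 in the same library, Areg stood above 80.1% to 91.1% of them, Egfr above 48.4% to 59.2% and Epgn above 11.5% to 22.2%.

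**Figure D1:**
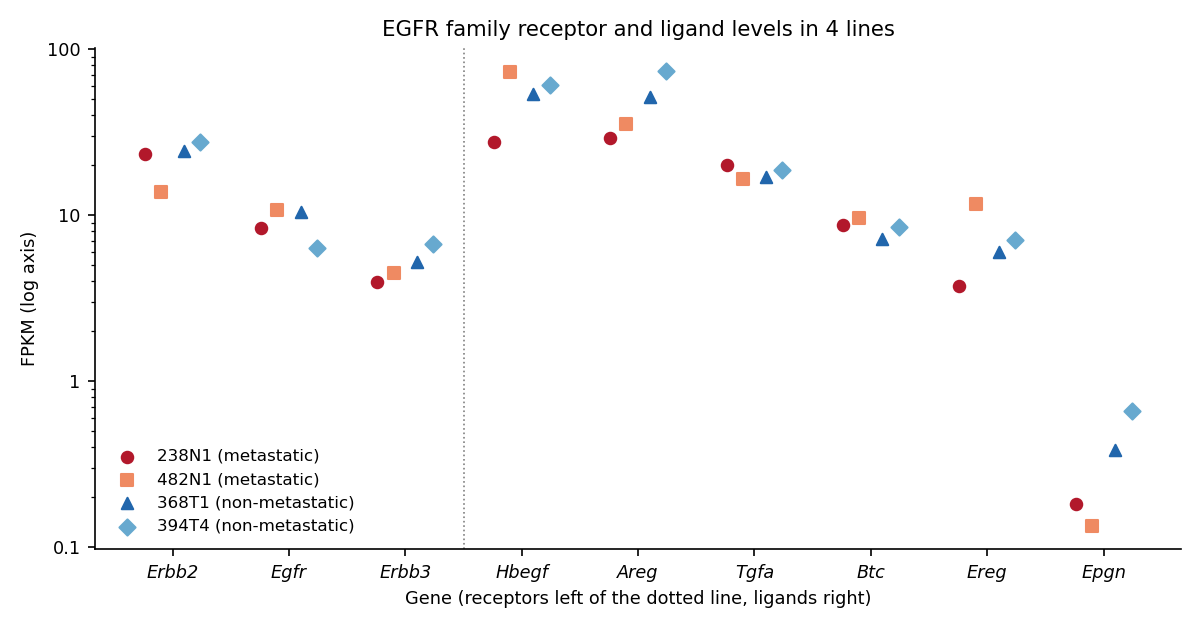
FPKM on a log axis of the 3 receptor genes (left of the dotted line) and the 6 ligand genes (right), with 1 point per line. Hbegf and Areg lie highest and Epgn lowest in every line. Both metastatic points lie below both non-metastatic points for Erbb2, Erbb3, Areg and Epgn, a separation that all 4 lost after scaling to the library sum. After scaling to the protein-coding sum, Areg and Epgn kept this separation, while Erbb2 and Erbb3 lost it.

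The test asked whether each gene differed between metastatic and non-metastatic lines by more than the lines of a group differ. It was limma on log2(FPKM + 1) over the 12425 genes with a mean of at least 1 FPKM, two-sided, with Benjamini-Hochberg adjustment over all of them, and differences are metastatic minus non-metastatic. None of the 8 members tested passed an adjusted p of 0.05 (0 of 8), where the background over all genes was 0.161%, or 20 of 12425. At an unadjusted p under 0.05, limma had 1 member, Areg, lower and 0 higher, beside 8.68% of all genes lower and 5.70% higher. In 3 of the 8 tested members, Erbb2, Erbb3 and Areg, the highest metastatic value was under the lowest non-metastatic one, where 26.9% of all genes did so. The reverse held in 1 of 8, Btc, where 28.3% of all genes did so. The p-values set the group difference against the spread between lines of a group, which limma moderates with that of all genes tested. In bulk RNA fewer cells of a type cannot be told apart from less RNA per cell. The median difference of the 8 members was -0.16, beside 0.045 over all genes tested. Epgn was under the filter and is given as values.

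Among the receptors, Erbb2 was the most abundant in every line. It measured 23.3 FPKM in 238N1 and 13.7 in 482N1, against 24.3 in 368T1 and 27.6 in 394T4. The metastatic values lay below the others, but 238N1 only just, and most of the gap was 482N1. The difference was -0.51 on the log2(FPKM + 1) scale (SE 0.30, 95% interval -1.32 to 0.31, limma adjusted p = 0.429). Without 482N1 it was -0.15, and without 238N1 it was -0.87. After scaling to the library sum it turned to 0.11, and the groups overlapped after that scaling and after scaling to the protein-coding sum.

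Erbb3, the receptor of neuregulins that pairs with Erbb2, was the least abundant of the receptors in 238N1, 482N1 and 368T1. It measured 3.96 FPKM in 238N1 and 4.46 in 482N1, against 5.20 in 368T1 and 6.68 in 394T4. The groups did not overlap, though the gap between them was small beside the spread of the lung lines. The difference was -0.41 (SE 0.24, 95% interval -1.06 to 0.25, limma adjusted p = 0.433), and it too turned to 0.11 after scaling to the library sum, with overlap after either sum scaling. Without 394T4 it was -0.25.

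Egfr itself, the receptor of all 6 ligands, showed no group order. It measured 8.35 FPKM in 238N1 and 10.8 in 482N1, against 10.5 in 368T1 and 6.37 in 394T4. The lowest and the second highest value were the non-metastatic lines, so the groups overlapped. The difference was 0.19 (SE 0.31, 95% interval -0.65 to 1.03, limma adjusted p = 0.743), and leaving out 394T4 turned it to -0.13. After scaling to the library sum, both metastatic lines were above both others, at 12.7 and 12.5 against 6.44 and 7.46.

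The balance between receptors differed from line to line. It does not change when all values of a library are multiplied by the same factor, though quantile normalization can change it. Erbb2 was 2.79 times Egfr in 238N1 and 1.27 times in 482N1, against 2.32 times in 368T1 and 4.33 times in 394T4. The highest and lowest ratios lay in different groups, with the other two lines between them. Egfr was 2.11 and 2.42 times Erbb3 in 238N1 and 482N1, against 2.01 times in 368T1 and 0.954 times in 394T4. In 394T4, then, Egfr and Erbb3 transcripts were about level, whereas Egfr was at least 2 times Erbb3 elsewhere.

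Among the ligands, amphiregulin (Areg), a low-affinity ligand of Egfr, had the largest group difference of the 5 tested. It measured 28.9 FPKM in 238N1 and 35.1 in 482N1, against 51.5 in 368T1 and 73.8 in 394T4. The groups did not overlap, and both lung lines stood well above both lymph node lines. The means were 32.0 ± 4.36 FPKM in metastatic and 62.6 ± 15.8 FPKM in non-metastatic lines (SD, n = 2 each). The difference was -0.93 (SE 0.24, 95% interval -1.59 to -0.27), with an unadjusted p of 0.0170 in limma's fit and an adjusted p of 0.335, so it did not pass over all genes. Relative to the median of all genes, Areg lay between -0.98 and -0.80 under the deposited scale and 4 rescalings, and it was lower in metastatic lines under all of them. After scaling to the library sum, however, the groups overlapped, at 44.1 and 40.6 in the metastatic against 31.7 and 86.3 in the non-metastatic lines. They stayed apart after scaling to the protein-coding sum, at 31.1 and 38.3 in the metastatic against 47.1 and 69.6 in the non-metastatic lines.

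Set against other ligands of the same library, Areg was lower in the metastatic lines beside Btc and Tgfa but not beside Hbegf. It was 3.32 and 3.63 times Btc in 238N1 and 482N1, against 7.20 and 8.67 times in 368T1 and 394T4. It was 1.44 and 2.13 times Tgfa in 238N1 and 482N1, against 3.03 and 3.95 times in 368T1 and 394T4. Hbegf, in turn, was 0.952 and 2.07 times Areg in 238N1 and 482N1, against 1.04 and 0.827 times in 368T1 and 394T4. The first 2 ratios kept the groups apart and the Hbegf ratio did not, and all were chosen as descriptions after the values were seen. The epithelial markers other than Cdh1 had the same split of lines as Areg, a split that 26.9% of all genes tested had. Epcam measured 4.13 and 4.76 FPKM in 238N1 and 482N1, against 54.0 and 34.3 FPKM in 368T1 and 394T4. Of the 5 alveolar type 2 markers, Sftpb and Nkx2-1 had this split. Lamp3 overlapped, Sftpc was above 0 in 394T4 only, and Sftpa1 was at 0 throughout. The 5 summed to 0.747 and 0.795 FPKM in 238N1 and 482N1, against 3.08 and 20.5 FPKM in 368T1 and 394T4. Sftpb made up most of the sum in 394T4, at 13.7 FPKM. Nkx2-1, the lung lineage regulator among them, measured 0.0619 FPKM in 238N1 and was listed at 0 in 482N1, against 2.42 and 3.998 FPKM in 368T1 and 394T4. The part of these markers in the Areg difference was not tested.

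**Figure D2:**
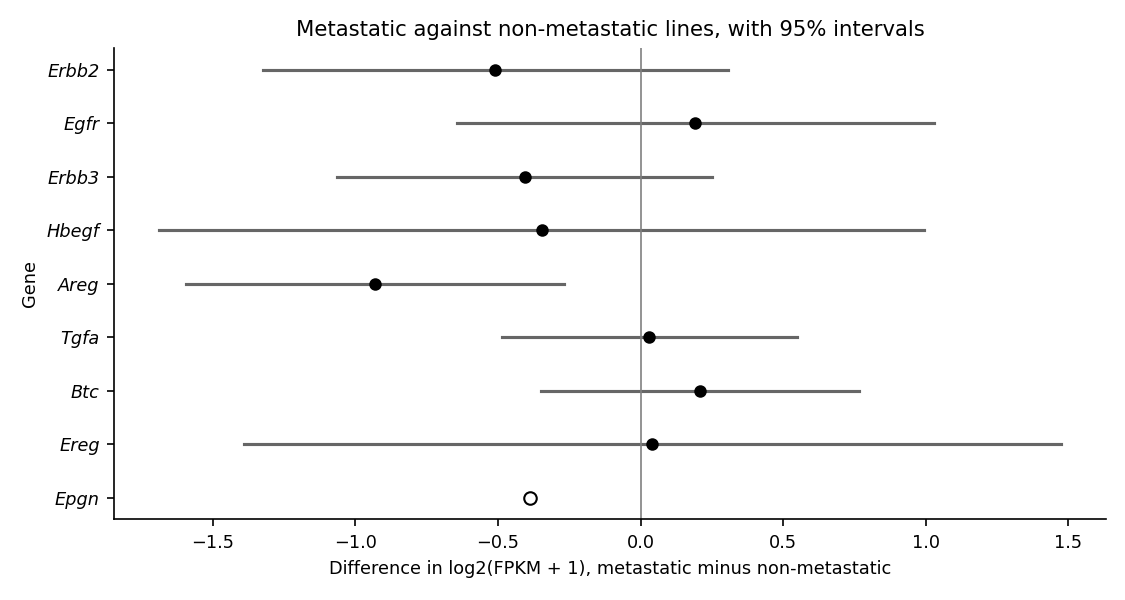
Difference in log2(FPKM + 1), metastatic minus non-metastatic, for the 9 genes, with limma's 95% interval as a bar (n = 2 lines each). The open point is Epgn, which was under the filter and not tested in the main fit. Only the Areg interval, -1.59 to -0.27, lies off 0, and no gene passed after adjustment.

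Heparin-binding EGF-like growth factor (Hbegf, chromosome 18) differed more between the 2 metastatic lines than between the groups. It measured 27.6 FPKM in 238N1 and 72.5 in 482N1, against 53.8 in 368T1 and 61.0 in 394T4. The metastatic lines held both the lowest and the highest value, with the lung lines between them. The group difference was -0.35 (SE 0.49, 95% interval -1.69 to 0.99, limma adjusted p = 0.709), and it became 0.33 without 238N1, -1.03 without 482N1 and 0.28 after scaling to the library sum.

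Epiregulin (Ereg), which binds Egfr and Erbb4, had the same order of lines. It measured 3.74 FPKM in 238N1 and 11.6 in 482N1, against 6.01 in 368T1 and 7.05 in 394T4. The metastatic lines were again the lowest and the highest. The group difference was 0.041 (SE 0.53, 95% interval -1.39 to 1.47, limma adjusted p = 0.973), but it became -0.66 without 482N1, 0.75 without 238N1 and -0.13 with quantile normalization.

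Between the metastatic lines, 482N1 over 238N1 gave a ratio of 3.10 for Ereg, 2.63 for Hbegf and 0.589 for Erbb2. Ereg and Hbegf were the 2 of 8 tested members at least 2-fold apart on FPKM + 1 there, where 10.5% of all genes were. Between the lung lines, 0 of 8 were, where 6.44% of all genes were, and the widest ratios of 394T4 over 368T1 among the tested members were 0.609 for Egfr and 1.43 for Areg. With a library per line these ratios have no test. Stromal markers were highest in 482N1, with Col1a1 at 16.3 FPKM there and 0.217 FPKM in 238N1, and their part in the Hbegf, Ereg and Erbb2 values was not tested.

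Transforming growth factor alpha (Tgfa), a high-affinity ligand of Egfr, had the narrowest range of the 9 genes as deposited. It measured 20.1 FPKM in 238N1 and 16.5 in 482N1, against 17.0 in 368T1 and 18.7 in 394T4, and its highest value was 1.22 times its lowest. The groups overlapped as deposited, while after scaling to the protein-coding sum both metastatic lines were above both others, at 21.6 and 18.0 against 15.5 and 17.6. After scaling to the library sum the values ran from 10.4 to 30.7, so the narrow range was lost on that scale, and with median centring Btc had the narrower range. The difference was 0.031 (SE 0.19, 95% interval -0.49 to 0.55, limma adjusted p = 0.941), so a difference within these bounds would not have been told from none. The bounds are not adjusted for the number of genes tested, so larger differences could also have missed the adjusted threshold. The sign of the Tgfa difference turned under quantile normalization (-0.013) and median centring (-0.064).

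Betacellulin (Btc), which binds Egfr and Erbb4, measured 8.71 FPKM in 238N1 and 9.67 in 482N1, against 7.15 in 368T1 and 8.51 in 394T4. The metastatic lines lay above the others by a narrow margin, and the highest value was 1.35 times the lowest. The difference was 0.21 (SE 0.21, 95% interval -0.35 to 0.77, limma adjusted p = 0.588). Its size depended on the scaling, from 0.047 with quantile normalization to 0.78 after scaling to the library sum. It was 0.098 without 368T1, 0.32 without 394T4 and 0.14 without 482N1.

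Epigen (Epgn), a weak ligand of Egfr, was the only member under 1 FPKM. It measured 0.182 FPKM in 238N1 and 0.134 in 482N1, against 0.384 in 368T1 and 0.660 in 394T4. The groups did not overlap, and the mean was 3.30 times higher in the non-metastatic lines, but values this low rest on few fragments and the depth is unknown. The groups overlapped after scaling to the library sum, though not after scaling to the protein-coding sum. The difference on the log2(FPKM + 1) scale was -0.39, a scale that understates low genes, and it carries no test in the main fit. With no filter on low values, limma's adjusted p for Epgn was 0.407.

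Summed over the 6 ligands, the lines held 89.3 FPKM in 238N1 and 145.5 in 482N1, against 135.8 in 368T1 and 169.7 in 394T4. The low sum was 238N1 alone, so the groups overlapped. Areg made up 32.4% and 24.1% of that sum in 238N1 and 482N1, against 37.9% and 43.5% in 368T1 and 394T4. Hbegf made up 30.9% and 49.8% in 238N1 and 482N1, against 39.6% and 36.0% in 368T1 and 394T4. Tgfa took 22.5% in 238N1, where Hbegf was low, and 11.0% to 12.5% in the other lines. Hbegf and Areg together therefore held 63.3% of ligand FPKM in 238N1 and 74.0% in 482N1, against 77.5% in 368T1 and 79.4% in 394T4.

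**Figure D3:**
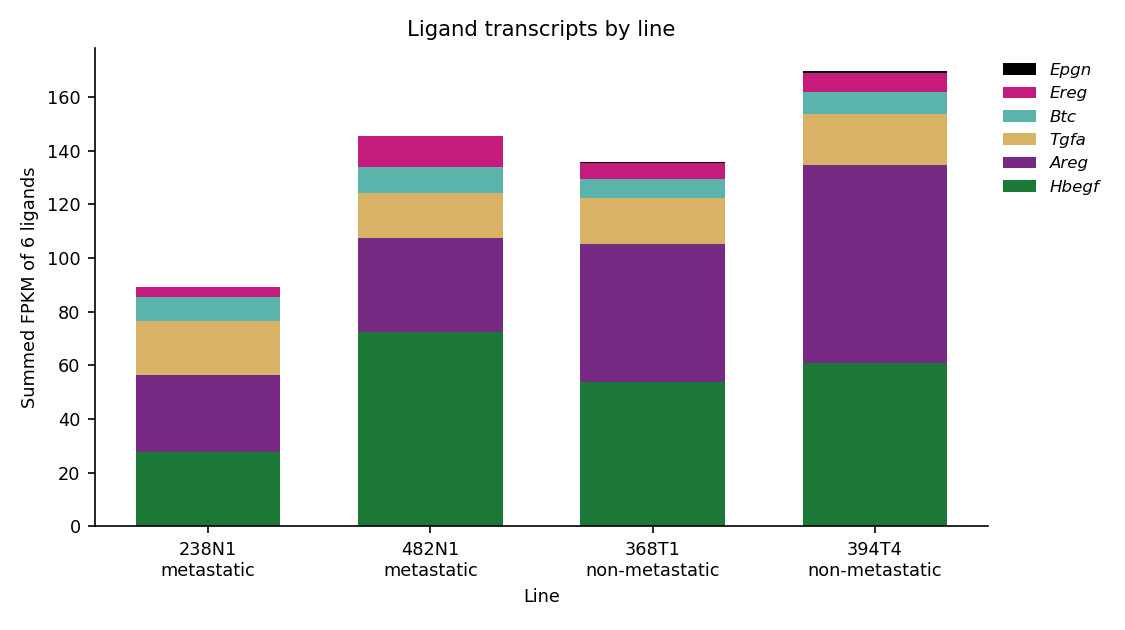
Summed FPKM of the 6 ligand genes in each line, stacked by gene. The sum is lowest in 238N1, at 89.3 FPKM, and Areg is the largest part in 394T4 while Hbegf is the largest in 482N1.

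The ligand genes on chromosome 5 lie within 375.5 kb in the order Epgn, Ereg, Areg and Btc, with no other protein-coding gene of the table between them. Epgn (91456490 to 91464241), Ereg (91503643 to 91522675) and Areg (91568641 to 91577458) are on the plus strand of mm9, with gaps of 39.4 and 46.0 kb, and Btc (91786287 to 91831939) is on the minus strand 208.8 kb beyond Areg. Epgn and Areg were lower in both metastatic lines, Ereg between them had its highest and its lowest value in the metastatic lines, and Btc was slightly higher in both. Areg was 7.74 times Ereg in 238N1 and 3.03 times in 482N1, against 8.56 times in 368T1 and 10.5 times in 394T4.

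**Figure D4:**
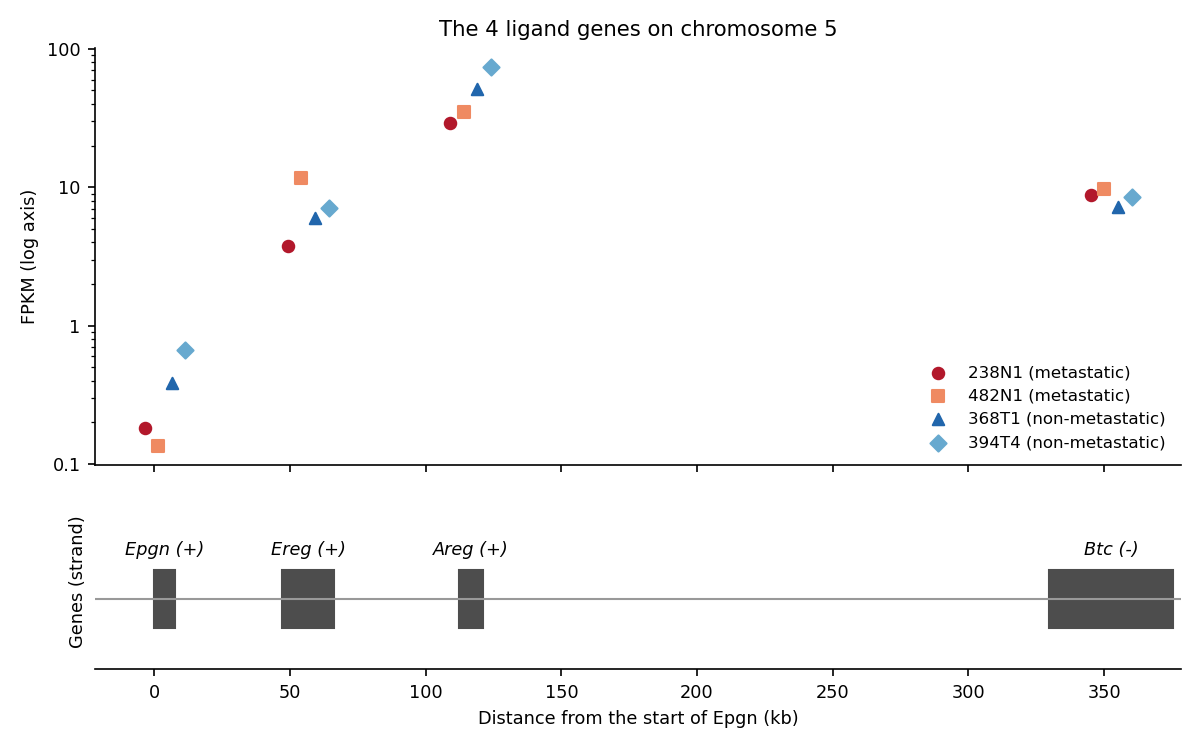
Top, FPKM on a log axis of the 4 ligand genes on chromosome 5, with the 4 lines spread sideways at each gene for legibility. Bottom, the genes to scale by distance from the start of Epgn, with their strands. The metastatic points lie below the non-metastatic ones for Epgn and Areg but lie on both sides of them for Ereg.

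The genes whose levels ran most like a member over the 4 lines were sought among 7424 genes of at least 5 FPKM and above 0 in every line, by the distance between centred log2(FPKM + 1) profiles. For Erbb2, the most abundant receptor, they were Psmg4 (distance 0.052), Ddx47 (0.079) and Lrrc8c (0.086). Psmg4 measured 28.9 and 16.6 FPKM in 238N1 and 482N1, against 28.7 and 33.0 FPKM in 368T1 and 394T4. For Hbegf, the most abundant ligand, they included Ifrd1 (0.10) and Arf2 (0.22). Ifrd1 measured 18.1 and 46.9 FPKM in 238N1 and 482N1, against 37.8 and 39.0 FPKM in 368T1 and 394T4. With 4 points many genes share a shape, so this is a description.

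The remaining receptor and ligand genes of the family were mostly at or near 0. Erbb4, Egf and Nrg3 were listed at 0 in every line, and Nrg4 was above 0 in 238N1 only, at 0.150 FPKM. Neuregulin 1 (Nrg1), a ligand of Erbb3, measured 3.64 FPKM in 238N1 and 2.94 in 482N1, against 9.51 in 368T1 and 5.36 in 394T4. The groups did not overlap, with a difference of -0.94 (SE 0.34, limma adjusted p = 0.344). Nrg2 measured 1.03 FPKM in 238N1 and was listed at 0 in 482N1, against 2.38 in 368T1 and 1.42 in 394T4.

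Genes that release the ligands went both ways, with 0 of 8 past limma's adjusted threshold, 2 lower and 2 higher at an unadjusted p under 0.05, and a median difference of 0.15. Over all genes tested, 0.161% passed the adjusted threshold, and 8.68% were lower and 5.70% higher at the unadjusted one. Adam10, a sheddase of betacellulin, measured 34.5 FPKM in 238N1 and 42.3 in 482N1, against 12.8 in 368T1 and 21.7 in 394T4 (1.15, SE 0.31, limma adjusted p = 0.335). Adam9 measured 54.3 and 62.3 FPKM in 238N1 and 482N1, against 31.7 and 41.6 FPKM in 368T1 and 394T4 (0.67, SE 0.21, limma adjusted p = 0.335). Both were higher in both metastatic lines. Rhbdf2 encodes an inactive rhomboid with a part in the maturation of Adam17. It measured 5.11 and 4.95 FPKM in 238N1 and 482N1, against 9.61 and 10.7 FPKM in 368T1 and 394T4 (-0.89, SE 0.20, limma adjusted p = 0.330). Adam17, the main sheddase of amphiregulin, measured 7.18 and 9.84 FPKM in 238N1 and 482N1, against 5.97 and 6.48 FPKM in 368T1 and 394T4, and it was named after its values were seen.

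Adaptors, effectors and ubiquitin ligases of the receptors had a median difference of 0.30, with 0 of 16 past limma's adjusted threshold and 0 lower and 2 higher at an unadjusted p under 0.05, beside 8.68% and 5.70% of all genes. Both metastatic lines lay above both others in 8 of 16 and below in 3 of 16, beside 28.3% and 26.9% of all genes. Sos2, an exchange factor of RAS, measured 5.77 and 8.10 FPKM in 238N1 and 482N1, against 3.14 and 3.66 FPKM in 368T1 and 394T4 (0.84, SE 0.27, limma adjusted p = 0.335). Cblc, an epithelial ubiquitin ligase, measured 6.26 and 1.75 FPKM in 238N1 and 482N1, against 13.7 and 6.996 FPKM in 368T1 and 394T4 (-1.28, SE 0.60, limma adjusted p = 0.380). Plcg1, a phospholipase that docks on the receptors, measured 38.5 FPKM in 238N1 and was listed at 0 in the other lines, so no difference is read from it.

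Negative regulators of the receptors and of the RAS pathway below them had a median difference of 0.59, with 0 of 11 past limma's adjusted threshold and 1 lower and 3 higher at an unadjusted p under 0.05, beside 8.68% and 5.70% of all genes. The metastatic values were all above the others in 5 of 11 and all below in 2 of 11, beside 28.3% and 26.9% of all genes. Errfi1, which binds and inhibits the Egfr kinase, ran the other way from most of them. It measured 35.5 FPKM in 238N1 and 33.2 in 482N1, against 61.5 in 368T1 and 75.2 in 394T4, the same split of lines as Areg (-0.97, SE 0.17, limma adjusted p = 0.328). Spred1, an inhibitor of RAS signalling, measured 16.7 and 25.4 FPKM in 238N1 and 482N1, against 10.1 and 11.3 FPKM in 368T1 and 394T4 (0.88, SE 0.26, limma adjusted p = 0.335). Spred2, its paralog, measured 24.3 and 34.1 FPKM in 238N1 and 482N1, against 14.0 and 18.3 FPKM in 368T1 and 394T4 (0.81, SE 0.26, limma adjusted p = 0.335).

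**Figure D5:**
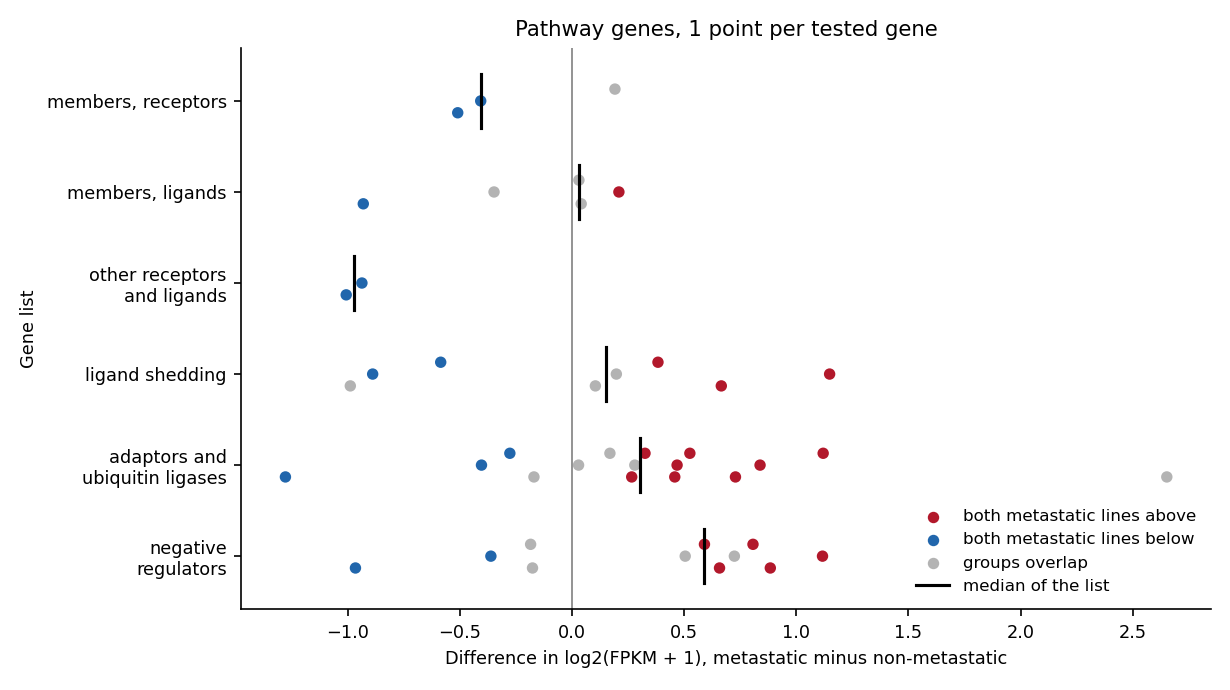
Difference in log2(FPKM + 1), metastatic minus non-metastatic, with 1 point per tested gene of the family and its pathway, coloured by whether the groups overlap, and the median of each list as a vertical bar. The medians run from -0.97 for the 2 tested genes of the other receptors and ligands to 0.59 for the negative regulators, and no point passed limma's adjusted threshold. The point farthest right is Plcg1, listed at 0 in 3 lines.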

How the data were processed

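RNA was measured in 4 cultured lines, with 1 library each, in 2 groups of 2 by the labelled metastasis status. Total RNA went into TruSeq libraries and paired reads of 100 bp, per the labels and design text. The alignment was to mm9, and the submitters' processing notes name TopHat. What computed the deposited FPKM values, and on which annotation, is not given in the sources used here, and no scaling between libraries is stated per the file headers. Depth in reads is unknown, so no counting intervals are given.

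Repeated symbols were reduced to the row of highest mean FPKM. Positions came from GENCODE vM1 on NCBIM37, which held the gene IDs of 99.0% of 37527 rows. The test was limma 3.58.1 in R 4.3.3 (trend=TRUE) on log2(FPKM + 1) for genes with a mean of at least 1 FPKM. Intervals are limma's 95% intervals. The scripts were tested on simulated data. Relative depth was the commonest ratio, within 1%, of values below a mean of 0.08 FPKM.

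All 9 members were named. Of each pathway list, genes of at least 5 FPKM with the 3 largest differences were named, along with the 3 genes nearest in profile to the top receptor and ligand. Some items under this rule and in the labels are not reported here. The members and lists were chosen with earlier results of these data known. Alternatives were other pseudocounts (0.1, 5), no filter or a mean of at least 5 FPKM, quantile normalization, scaling to the library sum or the protein-coding sum, median centring, limma without trend or with robust=TRUE, genes listed at 0 left out, rows added up, and each library left out.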

Additional observations from a re-analysis of the deposited data

How the results depend on the processing

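No member passed limma's adjusted threshold under any of the 16 alternatives (0 of 129 fits of single members), and the direction of Areg and Btc held in all of them. The number of genes called over the whole table, 20 as reported, was 2 with no filter, 10 at a mean of at least 5 FPKM, 378 after scaling to the library sum, 44 without the trend, 35 with robust=TRUE, 6 with genes listed at 0 left out, and 0 to 0 with each library left out; fewer or other genes and samples entered some of these fits, and the cause of the other shifts was not tested. Scaling to the library sum moved the median difference of all genes to 0.61, and scaling to the protein-coding sum to 0.24, against 0.045 as deposited, so Erbb2 (0.11), Erbb3 (0.11) and Hbegf (0.28) turned positive after scaling to the library sum. Ereg and Tgfa turned negative with quantile normalization (-0.13 and -0.013) and with median centring (-0.054 and -0.064). With each library left out, the difference ranged from -0.13 to 0.51 for Egfr, -0.66 to 0.75 for Ereg, -1.03 to 0.33 for Hbegf and -0.10 to 0.17 for Tgfa, and from -1.19 to -0.68 for Areg. Leaving out a library puts 1 line against 2, and the lone line is assumed to vary like the others. Erbb2 and Erbb3 no longer separated the groups after scaling to the protein-coding sum. No paired analysis was possible because the labels give the lines no replicate numbers that the groups share. Metastasis status and site of origin coincide in these lines and cannot be told apart.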
